A study of Mus musculus with 12 samples.

Results

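Glycogen is the branched glucose polymer in which animal cells store sugar, and 9 genes that build it, break it down or steer that balance are described here in brown fat. They are Gys1, Gys2, Gyg, Gbe1, Ugp2, Pygl, Pygb, Ppp1r3b and Ppp1r3c, found by their symbols among the 38924 genes of the deposited count table. Each of the 9 symbols matched 1 row, and all 9 were among the 14870 genes that passed the filter on low counts. The filter took all libraries together, and each member had counts in every library. The data are 12 RNA sequencing libraries of interscapular brown fat, the heat-making fat depot between the shoulder blades, each from a different wild-type C57BL/6J mouse. All mice were 14 weeks old and had spent the last 4 weeks at 1 constant temperature, in 3 groups of 4: thermoneutrality for a mouse (30 °C), ordinary room temperature (22 °C) or severe cold (6 °C). For 10 libraries the column matches a numbered mouse, and the other 2, of the 30 °C group, carry numbers found on no label of that group and are called mice A and B. Values of single mice are given in the order 1, 2, A and B at 30 °C and 1 to 4 at 22 and 6 °C, and mice with the same number at different temperatures are different animals.

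Glycogen is made from glucose 1-phosphate, which UDP-glucose pyrophosphorylase (Ugp2) turns into UDP-glucose. Glycogenin (Gyg) starts a new chain on itself, glycogen synthase (Gys1, the form of muscle and most tissues, or Gys2, the form known from liver) lengthens it, and the branching enzyme Gbe1 adds branch points. Glycogen phosphorylase releases glucose 1-phosphate again, and its isozymes are named after liver (Pygl), brain (Pygb) and muscle (Pygm). Ppp1r3b and Ppp1r3c encode scaffolds that bring protein phosphatase 1 to glycogen, where it activates the synthase and switches off the phosphorylase. Brown adipocytes are known to hold glycogen, and their stores are known to vary with the thermal state of the animal. The enzymes are also controlled by phosphorylation and by glucose 6-phosphate, which messenger RNA counts do not measure.

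The isozymes compared are separate genes with different coding sequences. In the GENCODE M21 annotation of GRCm38, Gys1 lies on chromosome 7 from 45434844 to 45456619 and Gys2 on chromosome 6 from 142422613 to 142473109, Pygl on chromosome 12 from 70190811 to 70231488 and Pygb on chromosome 2 from 150786735 to 150831758. Ppp1r3b lies on chromosome 8 from 35375739 to 35388139, Ppp1r3c on chromosome 19 from 36731731 to 36736653, Gyg on chromosome 3 from 20122084 to 20155317, Gbe1 on chromosome 16 from 70313949 to 70569716 and Ugp2 on chromosome 11 from 21321138 to 21371201. All 9 are annotated as protein-coding. Exons under a gene of the other strand made up 6.47% of the exon bases of Gys1 (under Ruvbl2) and 2.54% of those of Ugp2 (under Gm12043), and none of the other members. The coding sequences of Gys1 and Gys2 were 67.9% identical over 2109 aligned bases, those of Pygl and Pygb 74.9% and those of Ppp1r3b and Ppp1r3c 58.3%. The longest stretches without any difference were 29, 29 and 16 bases long. A read longer than the stretch of its pair fits both coding sequences only with mismatches, and fits with mismatches were not examined. The stretches are printed here.
Gys1 and Gys2, from base 1120 of both coding sequences: aatttcaacgtggaaaccctgaagggcca
Pygl and Pygb, from base 886 of both coding sequences: caggagtactttgtggtggctgccaccct
Ppp1r3b and Ppp1r3c, from bases 493 and 568: tttgacacctggaaaa
The muscle phosphorylase Pygm and Pygb share a longer stretch of 62 bases. Between 0% and 0.74% of the 50-base words of a member's transcripts also occur in transcripts of another gene, with the highest share in Gys1.

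Of the 9 members, 7 have an entry in the RefSeq promoter table (GRCm38.p6), which gives 300 bases from 250 before to 50 after each transcription start. Ugp2 has 2 entries, and Gys2 and Ppp1r3b are the members with none. The windows of the 2 members with a match and of the 2 phosphorylases, whose transcripts moved in opposite directions, are printed 5′ to 3′ with the motif CACGTG (the E-box, read the same on both strands) in capitals.
Gyg (chr3:20155067-20155366, minus strand): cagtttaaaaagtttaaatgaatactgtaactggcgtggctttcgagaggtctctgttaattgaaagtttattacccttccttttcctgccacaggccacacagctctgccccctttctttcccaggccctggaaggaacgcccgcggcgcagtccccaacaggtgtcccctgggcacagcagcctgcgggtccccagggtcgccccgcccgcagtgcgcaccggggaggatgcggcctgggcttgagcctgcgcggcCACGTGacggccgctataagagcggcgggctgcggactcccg
Ppp1r3c (chr19:36736555-36736854, minus strand): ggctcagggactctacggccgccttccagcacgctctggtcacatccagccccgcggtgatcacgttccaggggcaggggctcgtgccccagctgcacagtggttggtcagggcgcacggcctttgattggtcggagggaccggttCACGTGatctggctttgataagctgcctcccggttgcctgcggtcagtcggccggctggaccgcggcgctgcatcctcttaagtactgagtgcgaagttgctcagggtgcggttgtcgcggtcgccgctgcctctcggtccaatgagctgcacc
Pygl (chr12:70227634-70227933, minus strand): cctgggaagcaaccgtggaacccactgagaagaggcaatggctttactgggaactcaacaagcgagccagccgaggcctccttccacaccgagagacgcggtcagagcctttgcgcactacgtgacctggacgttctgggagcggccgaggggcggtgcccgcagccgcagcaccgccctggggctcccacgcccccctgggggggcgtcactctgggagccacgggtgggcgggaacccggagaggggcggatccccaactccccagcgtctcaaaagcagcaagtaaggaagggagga
Pygb (chr2:150786546-150786845, plus strand): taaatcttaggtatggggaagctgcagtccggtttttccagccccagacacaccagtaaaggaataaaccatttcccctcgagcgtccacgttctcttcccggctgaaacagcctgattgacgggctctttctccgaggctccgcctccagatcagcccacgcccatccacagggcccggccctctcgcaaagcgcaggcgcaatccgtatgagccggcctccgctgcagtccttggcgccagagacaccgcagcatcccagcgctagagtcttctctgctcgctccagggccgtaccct
By the start sites of the RefSeq promoters, the E-box begins 8 bases after the first transcribed base in Gyg and 104 bases before it in Ppp1r3c. Of the 32851 promoters searched, 7.15% hold this motif. The GENCODE M21 genes begin elsewhere, at 20155317 for Gyg, 36736653 for Ppp1r3c and 70231488 for Pygl on the minus strand, so the Pygl window lies inside its gene. No member's window held the cyclic AMP response element TGACGTCA (1.79% of all promoters) or the ERR element TCAAGGTCA (0.423%) on either strand. Neither was there a match to AGGTCA repeated after 1 base (0.0396%), or to CACGTG repeated after 5 bases, which no promoter of the table held. A match or its absence in these windows is a description of letters only.

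Library totals lay between 18290162 and 32513051 counts, apart from 86438386 in 22 °C mouse 3, whose library code also lies apart from the other codes. Levels are given as CPM, the count of a gene relative to the total of its library, after TMM scaling, which equalises the bulk of genes between libraries. The 12 brown adipocyte markers were all detected, and their summed level was 10940 to 12940 CPM at 30 °C, 17350 to 19960 at 22 °C and 23280 to 25610 at 6 °C. Of the 12, 6 were higher and 2 lower at 6 °C than at 30 °C. Fibroblast and macrophage markers were lower in the cold. The summed level of 6 fibroblast markers was 2220 to 4140 CPM at 30 °C and 676 to 837 at 6 °C, and that of 8 macrophage markers 464 to 1549 and 207 to 437 (116 to 171 at 22 °C). All 6 fibroblast markers and 6 of 8 macrophage markers were lower at 6 °C than at 30 °C, and 3 of 5 endothelial markers. The part of these shifts in the changes of the glycogen genes was not tested. In bulk tissue, fewer cells of a type and less RNA per cell cannot be told apart.

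At 6 °C the transcripts of the whole route from glucose 1-phosphate to branched glycogen stood above those at 30 °C, together with the liver-type phosphorylase and both phosphatase scaffolds, while the brain-type phosphorylase was lower. Of the 9 members 8 rose and 1 fell, at an adjusted p under 0.05 in edgeR's quasi-likelihood test, where the p-values of all 14870 tested genes were adjusted after Benjamini and Hochberg. A log2 change of 1 means a doubling, and SE is its standard error. In the same comparison 56.8% of all tested genes changed, 25.3% upward and 31.5% downward. The ranges of the 30 °C and 6 °C mice did not overlap for any of the 9 members, as for 51.5% of all tested genes. The median log2 fold change of the members was 1.53, against -0.11 over all tested genes. The count was also 8 and 1 when libraries were scaled by total counts, where the median log2 change of all genes shifted by -0.32 and that of Gys1 went from 0.81 to 0.50, and without the pair of libraries richest in muscle RNA (30 °C mouse 1 and 22 °C mouse 4).

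**Figure D1:**
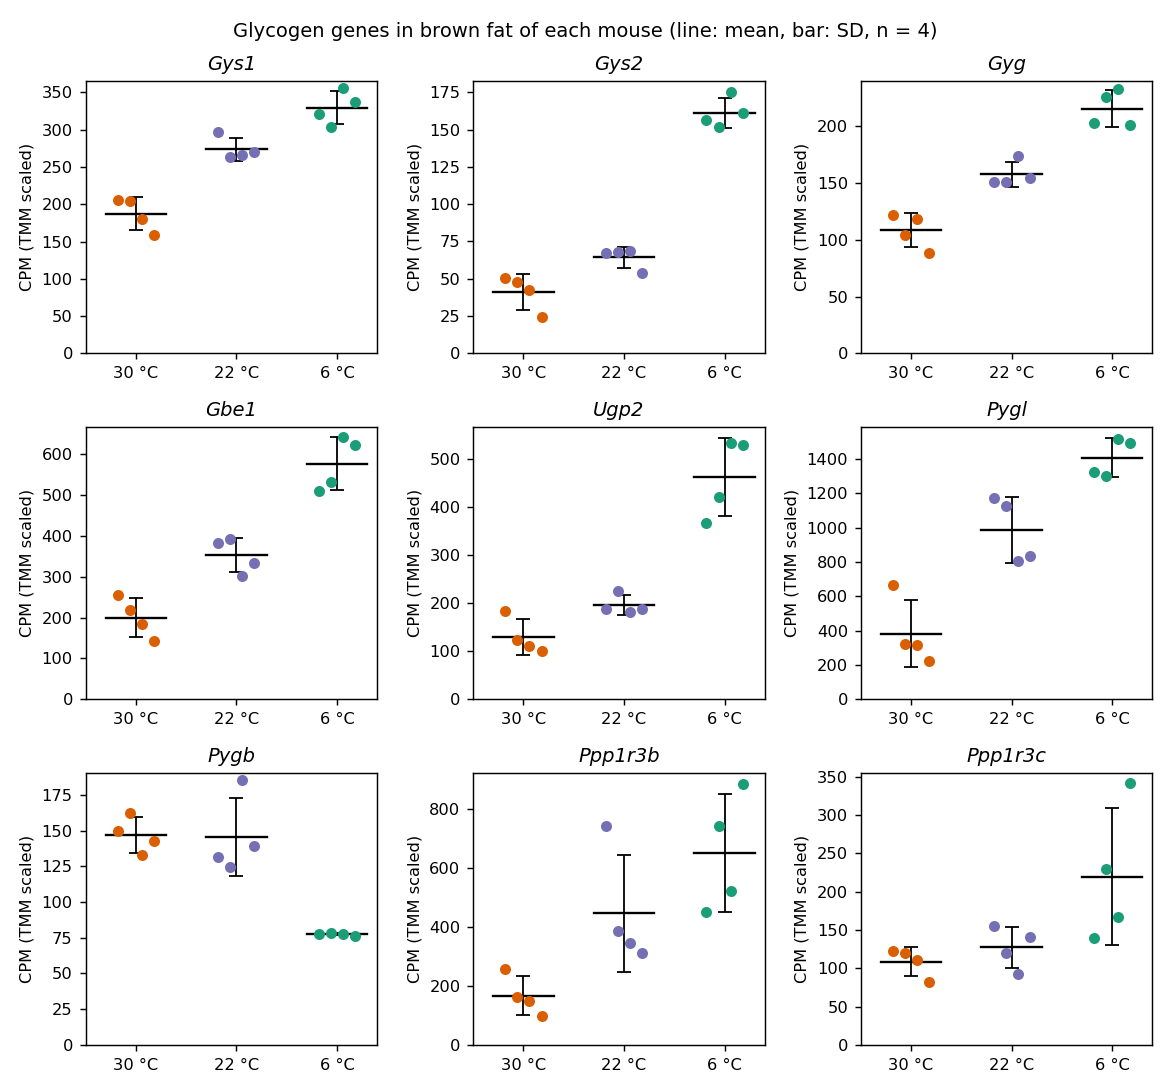
Level of each member in every mouse, in TMM-scaled CPM on axes that start at 0, by temperature (dots: mice, line: mean, bar: SD, n = 4). Pygb is the panel that falls, to between 76.2 and 78.3 CPM at 6 °C, and in the other panels every 6 °C mouse lies above every 30 °C mouse.

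Among the genes that build glycogen, those of the nucleotide sugar and of the liver-type synthase changed most. Ugp2 stood at 184, 124, 111 and 100.3 CPM at 30 °C, at 189, 226, 181 and 187 at 22 °C and at 367, 422, 532 and 529 at 6 °C. Every 6 °C mouse lay far above the highest mouse of the other groups, and Ugp2 rose 3.56-fold between 30 °C (129.8 ± 37.4 CPM, SD, n = 4) and 6 °C (462 ± 82.0), with a log2 change 1.83, SE 0.18, adjusted p = 6.1e-06. Gys2 stood at 50.5, 47.6, 42.4 and 24.2 CPM at 30 °C, at 67.2, 67.9, 68.7 and 53.7 at 22 °C and at 156, 152, 175 and 161 at 6 °C. Mouse B was the lowest at 30 °C and mouse 4 the lowest at 22 °C, and all 4 mice at 6 °C were above the rest, a 3.91-fold rise from 41.2 ± 11.8 to 161 ± 10.1 CPM (log2 change 1.97, SE 0.19, adjusted p = 4.6e-06).

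The branching enzyme, the primer protein and the common synthase moved less. Gbe1 stood at 255, 218, 185 and 142 CPM at 30 °C, at 382, 394, 303 and 334 at 22 °C and at 511, 534, 643 and 624 at 6 °C. The 3 groups of Gbe1 did not overlap, and it rose 2.89-fold from 30 to 6 °C (log2 change 1.53, SE 0.16, adjusted p = 6.1e-06). Gyg stood at 122, 105, 118 and 88.7 CPM at 30 °C, at 151, 151, 174 and 155 at 22 °C and at 203, 226, 233 and 201 at 6 °C. Its 3 groups stood apart as well, with a 1.99-fold rise (log2 change 0.99, SE 0.10, adjusted p = 4.1e-06). Gys1 stood at 206, 205, 180.2 and 159 CPM at 30 °C, at 296, 263, 266 and 270.1 at 22 °C and at 321, 304, 356 and 337 at 6 °C. Gys1 showed the smallest rise among the 8 members that rose, 1.76-fold, with little spread within groups (log2 change 0.81, SE 0.09, adjusted p = 9.8e-06).

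The phosphorylases went opposite ways. Pygl stood at 665, 321, 315 and 220.4 CPM at 30 °C, at 1175, 1126, 807 and 834 at 22 °C and at 1324, 1301, 1519 and 1492 at 6 °C. In the 30 °C group mouse 1 was far above the other mice, yet the highest 30 °C mouse remained below the lowest 22 °C mouse. Pygl rose 3.70-fold from 30 to 6 °C (log2 change 1.89, SE 0.29, adjusted p = 2.1e-04). The log2 change was 2.30 when 30 °C mouse 1 was left out, 1.70 without mouse B and 1.53 without mice A and B (adjusted p = 0.0016). Pygb stood at 149.9, 162, 133 and 142 CPM at 30 °C, at 132, 125, 185 and 139 at 22 °C and at 77.9, 78.3, 77.9 and 76.2 at 6 °C. The 4 mice at 6 °C lay close together and below all others, a 1.89-fold fall (log2 change -0.92, SE 0.11, adjusted p = 1.6e-05).

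Both scaffolds of protein phosphatase 1 were higher at 6 °C, with a wide spread between mice. Ppp1r3b stood at 258, 161, 151 and 97.9 CPM at 30 °C, at 743, 385, 345 and 313 at 22 °C and at 450.5, 743, 522 and 885 at 6 °C. At 22 °C mouse 1 stood far above the other mice of its group, and the 22 and 6 °C ranges overlapped widely. Ppp1r3b rose 3.90-fold from 30 to 6 °C (log2 change 1.96, SE 0.37, adjusted p = 1.0e-03). Ppp1r3c stood at 123, 119.9, 110.2 and 82.3 CPM at 30 °C, at 155, 121, 92.3 and 141 at 22 °C and at 140.2, 229, 167 and 342 at 6 °C. Mouse 4 stood highest at 6 °C and mouse 1 within the 22 °C range, and Ppp1r3c rose 2.02-fold from 30 to 6 °C (log2 change 1.01, SE 0.27, adjusted p = 0.00724). Without mice A and B, which match no numbered label, Ppp1r3c stood at 0.87 and did not pass (adjusted p = 0.0788), as with the mouse number as a block (0.78, adjusted p = 0.0772).

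Within the 30 °C group 1 order of mice ran through nearly all members. Mouse 1 had the highest level in 8 of the 9 members and mouse B the lowest in 8 of 9. How often these mice were the extremes over all tested genes was not counted. Mouse 1 also held the most skeletal muscle RNA of the 12 libraries, at 5472 CPM summed over 16 muscle markers, while the other 30 °C mice held 1044, 1134 and 1684 CPM. At 22 °C the mouse with the most muscle RNA, mouse 4, was the highest of its group in 0 of 9 members. Mouse B held the most fibroblast (4140 CPM) and macrophage marker RNA (1549 CPM) of the 30 °C group. Its summed brown adipocyte markers were the lowest of the group (10944 CPM). The part of these differences in the values of mice 1 and B was not tested. As a covariate, the muscle marker level was the mean over the 16 markers of log2 of CPM plus 0.5, not their sum. With it the 6 °C against 30 °C log2 fold changes of Pygl and Pygb were 2.00 and -0.93.

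At 22 °C, 7 of the 9 members stood higher than at 30 °C by the same test, and 0 stood lower. In this comparison 44.6% of all tested genes changed, 21.8% upward and 22.8% downward, and the members' median log2 fold change was 0.59 against -0.02 over all tested genes. Ppp1r3b (log2 change 1.42, SE 0.36, adjusted p = 0.00826) and Pygl (log2 change 1.37, SE 0.28, adjusted p = 0.0023) showed the largest rises, 2.67-fold and 2.59-fold. Gbe1, Gys2, Ugp2, Gys1 and Gyg rose by 0.82, 0.65, 0.59, 0.55 and 0.54 on the log2 scale, with adjusted p-values from 4.2e-04 (Gys1) to 0.018 (Ugp2). Ppp1r3c did not pass (log2 change 0.22, SE 0.26, adjusted p = 0.526), and neither did Pygb (log2 change -0.02, SE 0.11, adjusted p = 0.922). The ranges of the 30 and 22 °C mice were apart for 6 of the 9 members, against 38.9% of all tested genes.

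Several of these 22 °C calls rested on few mice. The call of Ugp2 was lost without 30 °C mouse A (0.52, adjusted p = 0.0515), 30 °C mouse B (0.48, adjusted p = 0.0573) or 22 °C mouse 2 (0.52, adjusted p = 0.0526). Without mice A and B together the calls of Ugp2 (0.34, adjusted p = 0.184) and Ppp1r3b (1.09, adjusted p = 0.0961) were lost, which left 5 members, and Gys2 stood at 0.39 (adjusted p = 0.0169). With libraries scaled by total counts, where all genes shifted by -0.26 in the median, Ugp2 (0.33, adjusted p = 0.1) and Gys2 (0.40, adjusted p = 0.0528) did not pass, and Gys1 and Gyg both stood at 0.29. With the mouse number as a block, Ugp2 (0.29, adjusted p = 0.399) and Ppp1r3b (1.21, adjusted p = 0.132) did not pass.

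From 22 to 6 °C, 6 members rose and 1 fell, where 34.2% of all tested genes changed, 16.9% upward and 17.4% downward. The members' median log2 fold change was 0.54, against -0.03 over all tested genes. Gys2 rose 2.50-fold (log2 change 1.32, SE 0.18, adjusted p = 3.1e-04) and Ugp2 2.37-fold (log2 change 1.24, SE 0.18, adjusted p = 4.0e-04), the largest rises of this step among the members. Gbe1 rose by 0.71 and Gyg by 0.45 on the log2 scale. Pygb fell 1.87-fold (log2 change -0.91, SE 0.11, adjusted p = 9.1e-05). Pygl (log2 change 0.52, SE 0.28, adjusted p = 0.178) and Ppp1r3b (log2 change 0.54, SE 0.35, adjusted p = 0.262) did not pass, although the 22 and 6 °C ranges of Pygl did not overlap. When 30 °C mouse 1 was left out, the mouse with the highest Pygl value of its group, Pygl passed at the same 0.52 (adjusted p = 0.019).

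The remaining 2 rises of this step, those of Gys1 (log2 change 0.27, SE 0.09, adjusted p = 0.0371) and Ppp1r3c (log2 change 0.79, SE 0.27, adjusted p = 0.0398), were close to the threshold. For Gys1 the call was lost without 22 °C mouse 2 (adjusted p = 0.0863), mouse 3 (0.0552) or mouse 4 (0.0808), and without 6 °C mouse 1 (0.0586), mouse 3 (0.102) or mouse 4 (0.082). For Ppp1r3c it was lost without 30 °C mouse 2 (0.0517) or A (0.0509), 22 °C mouse 2 (0.0874), mouse 3 (0.0942) or mouse 4 (0.0641), and 6 °C mouse 2 (0.081) or mouse 4 (log2 change 0.49, adjusted p = 0.101). Without the pair of libraries richest in muscle RNA, 4 members rose and 1 fell in this step. The ranges of the 22 and 6 °C mice were apart for 7 of the 9 members, against 34.9% of all tested genes.

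Whether the step from 22 to 6 °C differed from the step from 30 to 22 °C was tested for each member, and Pygb was the 1 member that passed. The difference of its log2 steps was -0.89 (SE 0.19, adjusted p = 0.00386), downward, as for 15% of all tested genes, while 29.3% passed in either direction. Without 22 °C mouse 3, the highest of all mice for Pygb, the difference was -0.59 (adjusted p = 0.00775), and with the mouse number as a block it was -0.68 and did not pass (adjusted p = 0.0525). Gys2 (0.68, SE 0.32, adjusted p = 0.13) and Ugp2 (0.65, SE 0.32, adjusted p = 0.141) had larger steps on the cold side, by a difference that did not pass. Pygl (-0.86, SE 0.48, adjusted p = 0.201) and Ppp1r3b (-0.88, SE 0.60, adjusted p = 0.304) had smaller ones, and their differences did not pass either. Some of these outcomes rested on single mice: Gys2 passed without mouse B (0.86, adjusted p = 0.00331) and Pygl without 30 °C mouse 1 (-1.27, adjusted p = 0.00358), and Ppp1r3b went to -0.16 without 22 °C mouse 1.

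**Figure D2:**
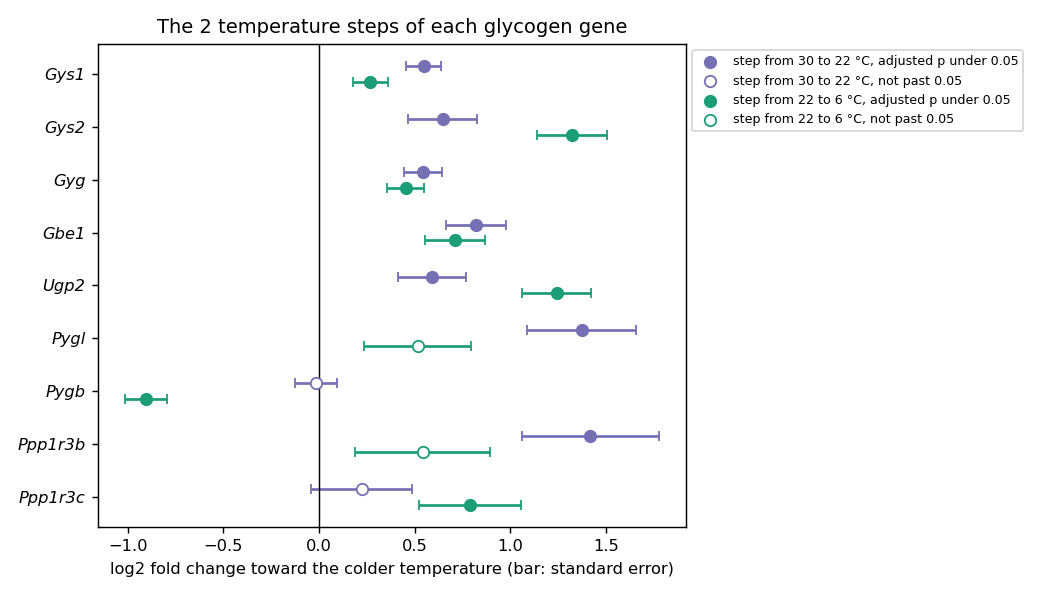
Log2 fold change of each member over the step from 30 to 22 °C and over the step from 22 to 6 °C, with the standard error as a bar and filled symbols for an adjusted p under 0.05. The larger step of Pygl and Ppp1r3b was the warmer one (1.37 and 1.42). That of Gys2, Ugp2 and Pygb was the colder one (1.32, 1.24 and -0.91). The difference between the 2 steps passed the test for Pygb alone, and that of Ppp1r3b went to -0.16 without 22 °C mouse 1.

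The makeup of the synthase and phosphorylase transcripts was compared within each library, as the share of an isozyme in counts per kilobase of exon, a measure from which the scaling of libraries cancels. Gys2 made up 30.7, 29.5, 29.8 and 21.5% of the synthase transcripts at 30 °C, 29.0, 31.8, 31.8 and 26.4% at 22 °C and 46.7, 47.4, 47.0 and 46.2% at 6 °C. Its share was 27.9% ± 4.25 (SD, n = 4), 29.7% ± 2.58 and 46.8% ± 0.484, so the 30 and 22 °C mice overlapped, and every 6 °C mouse lay above every other mouse. The summed level of both synthases in RPKM (CPM per kilobase of exon) was 54.6 ± 9.04 at 30 °C, 81.4 ± 4.37 at 22 °C and 129 ± 8.36 at 6 °C.

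Among phosphorylase transcripts, the liver type took a larger share at each lower temperature. Pygl made up 49.5, 49.2, 51.6 and 37.9% of the sum of Pygl, Pygb and Pygm at 30 °C, 80.1, 80.1, 68.0 and 60.1% at 22 °C and 82.7, 89.6, 92.7 and 86.5% at 6 °C, without overlap between the groups. The means were 47.0% ± 6.20, 72.1% ± 9.84 and 87.9% ± 4.28 (SD, n = 4). With Pygm left out of the sum, as an alternative chosen after the values were seen, the share of Pygl was 51.91 to 75.57% at 30 °C, 75.24 to 86.31% at 22 °C and 92.06 to 93.18% at 6 °C, and the 30 and 22 °C ranges then met between 30 °C mouse 1 and 22 °C mouse 3. Of the 2 scaffolds, Ppp1r3b made up 47.9, 37.1, 37.5 and 34.3% at 30 °C, 67.7, 58.4, 62.1 and 49.4% at 22 °C and 58.5, 58.7, 57.8 and 53.1% at 6 °C. Its share at 22 and 6 °C lay above that at 30 °C in every mouse, and the 22 and 6 °C groups overlapped (59.4% ± 7.70 and 57.0% ± 2.62).

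**Figure D3:**
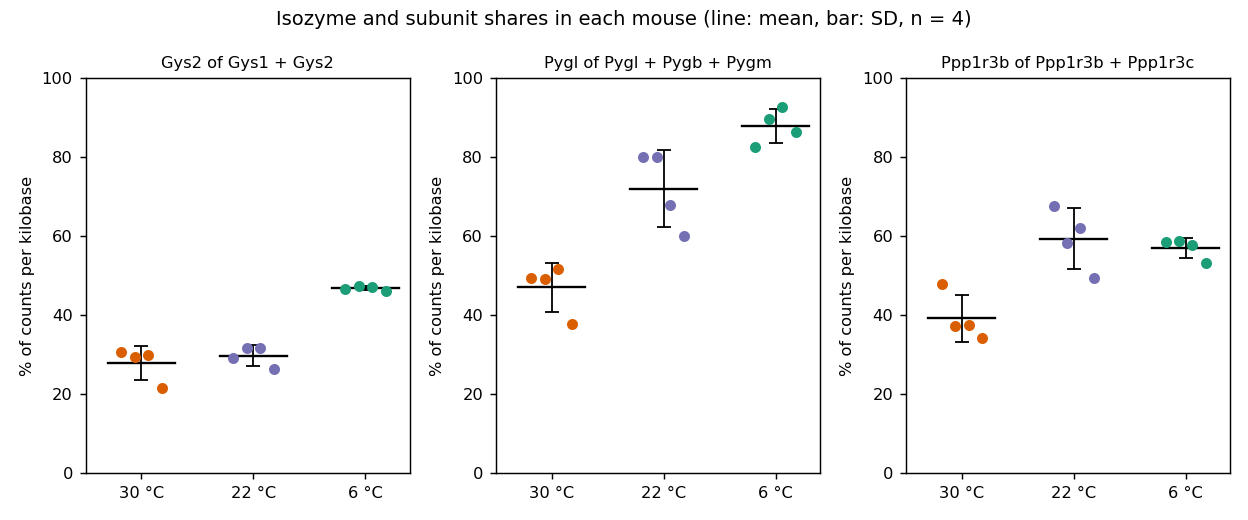
Share of Gys2 among synthase transcripts, of Pygl among phosphorylase transcripts and of Ppp1r3b among the 2 scaffolds, in percent of counts per kilobase of exon, by mouse and temperature (line: mean, bar: SD, n = 4). The Gys2 share steps up at 6 °C alone, to between 46.2 and 47.4%, and the Pygl share rises at each step.

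Per kilobase of exon, the 9 members overlapped in sequence at 30 °C and spread further apart in the cold. At 30 °C the mean RPKM ran from 15.5 ± 4.45 (Gys2) through 26.9 ± 10.7 (Ppp1r3b) and 30.6 ± 2.57 (Pygb) to 46.2 ± 6.39 (Gyg) and 55.2 ± 28.3 (Pygl), and each member overlapped the next in that order. At 6 °C Pygl was highest (204 ± 16.3 RPKM), with all 4 mice above all values of Ugp2, the next (151 ± 26.7). Then came Gbe1 (108 ± 12.2), Ppp1r3b (105 ± 32.2), Gyg (92.0 ± 6.79), Ppp1r3c (80.6 ± 33.0), Gys1 (68.8 ± 4.63) and Gys2 (60.6 ± 3.81), each overlapping its neighbour. Pygb came last at 6 °C (16.1 ± 0.197), below every value of Gys2. At 22 °C the order began with Pygl (143 ± 27.8) and ended with Pygb (30.2 ± 5.68) and Gys2 (24.2 ± 2.69), and these last were the 1 pair of neighbours whose ranges did not overlap.

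Of 24 other genes of glycogen metabolism, 10 were higher and 4 lower at 6 °C than at 30 °C, and 10 did not pass. Their median log2 fold change was 0.08, against -0.11 over all tested genes, and the share called, 14 of 24, stands beside the 56.8% of all tested genes. The number lower depended on the scaling and on single mice. It was 10 when libraries were scaled by total counts, and 2 without 30 °C mouse A, 6 °C mouse 2 or 6 °C mouse 3. From 30 to 22 °C 10 rose and 3 fell, where 21.8% of all tested genes rose and 22.8% fell. From 22 to 6 °C 4 rose and 1 fell, where 16.9% of all tested genes rose and 17.4% fell. The number that rose, not always of the same genes, was 2 without 22 °C mouse 2 or 4 or 6 °C mouse 1 or 3, and 1 without 6 °C mouse 4.

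The main phosphoglucomutase, which links glucose 6-phosphate to glucose 1-phosphate, rose with the members. It is listed as Pgm2 in the deposited table and as Pgm1 in GENCODE M21 (identifier ENSMUSG00000025791, and 13.6% of its exon bases under Itgb3bp on the other strand). The gene went from 174 ± 28.6 CPM at 30 °C to 345 ± 11.2 at 22 °C and 367 ± 18.6 at 6 °C, a log2 rise of 0.98 by 22 °C (adjusted p = 2.3e-05), after which it stood at 0.09 from 22 to 6 °C (adjusted p = 0.521). The relatives Pgm1 in the deposited table (-0.32, adjusted p = 0.0265) and Pgm2l1 (-0.43, adjusted p = 0.0238), fell. Both calls were lost without single libraries: that of Pgm1 without 30 °C mouse A (adjusted p = 0.0791) or B (0.0576) and 6 °C mouse 2 (0.0637), mouse 3 (0.0775) or mouse 4 (0.0539), and with RLE scaling (0.0565), and that of Pgm2l1 without 30 °C mouse 1 (0.057) or A (0.0568) and 6 °C mouse 1 (0.0592) or mouse 3 (0.0795).

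Among other breakdown enzymes Gaa, the lysosomal glucosidase, rose from 72.7 ± 3.88 to 111 ± 6.83 CPM (log2 change 0.61, SE 0.08, adjusted p = 5.2e-05). The muscle phosphorylase Pygm did not pass (log2 change -1.30, SE 0.87, adjusted p = 0.225). Of 5 phosphorylase kinase subunits, which activate phosphorylase, Phkb alone passed at 6 °C (log2 change 0.92, SE 0.15, adjusted p = 2.0e-04). Phka2 was higher at 22 °C (79.9 ± 1.34 CPM) than at 30 °C (57.5 ± 2.82) or 6 °C (58.7 ± 6.04), and the difference of its steps was -0.92 (SE 0.13, adjusted p = 4.6e-04). Between 30 and 6 °C Phka2, the liver-type subunit, stood at 0.03 (adjusted p = 0.747), or at -0.29 (adjusted p = 0.00492) when libraries were scaled by total counts. Phka1 stood at 0.27 (adjusted p = 0.215) and passed without the muscle-rich 30 °C mouse 1 (0.51, adjusted p = 0.00459). It also passed with the muscle covariate (0.51, adjusted p = 0.0185). Phkg1 stood at -1.11 (adjusted p = 0.0826) and passed without 30 °C mouse 2 (-1.33, adjusted p = 0.0471) and with total counts (-1.41, adjusted p = 0.0311). Phkg1 was highest in the most muscle-rich libraries, 30 °C mouse 1 (16.7 CPM) and 22 °C mouse 4 (12.4). It was lowest in 6 °C mouse 3 (1.42), which held the least muscle RNA. The part of muscle in these subunits was not tested.

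Genes around the phosphatase and the synthase kinases moved in both directions. The catalytic subunit Ppp1ca rose by 0.49 (adjusted p = 4.3e-05) and the scarce Ppp1cc fell by 0.80 (adjusted p = 1.6e-04). Ppp1cb stood at -0.08 (adjusted p = 0.548). It passed as lower with total counts (-0.39, adjusted p = 0.00109) and without mice A and B (-0.24, adjusted p = 0.0481). Of the 3, Ppp1cb had the highest mean CPM. Per kilobase of exon Ppp1ca was the highest at each temperature, with 61.2 RPKM at 30 °C against 41.2 for Ppp1cb. Ppp1cb shared 17.5% of its exon bases with a gene of the same strand. Of the other scaffolds, Ppp1r3d rose by 0.80 (adjusted p = 0.00251). Ppp1r3g rose from a level of 0.158 to 0.240 CPM at 30 °C to 0.367 to 2.80 at 6 °C (log2 change 2.66, SE 0.74, adjusted p = 0.00917), a call lost without mice A and B (adjusted p = 0.0796). Ppp1r3f, with 46.9% of its exon bases shared with genes of the same strand, fell by 0.50 (adjusted p = 0.0144), a call lost without 6 °C mouse 2 (adjusted p = 0.0507). Gsk3a and Gsk3b, the kinases that inactivate glycogen synthase, rose by 0.52 and 0.59 (adjusted p = 4.7e-05 and 3.6e-04), with 28.3% of the exon bases of Gsk3a under a gene of the other strand. Nhlrc1, which encodes malin, an E3 ubiquitin ligase of glycogen quality control, rose by 0.46 (adjusted p = 0.0234), a call lost under total counts (0.14, adjusted p = 0.415) and without 30 °C mouse 1 (0.0622) or B (0.0637) and 6 °C mouse 1 (0.0518) or mouse 4 (0.0567). Its partner Epm2a, which encodes laforin, stood at 0.13 (adjusted p = 0.386) and passed without 30 °C mouse 1 (0.28, adjusted p = 0.0394).

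**Figure D4:**
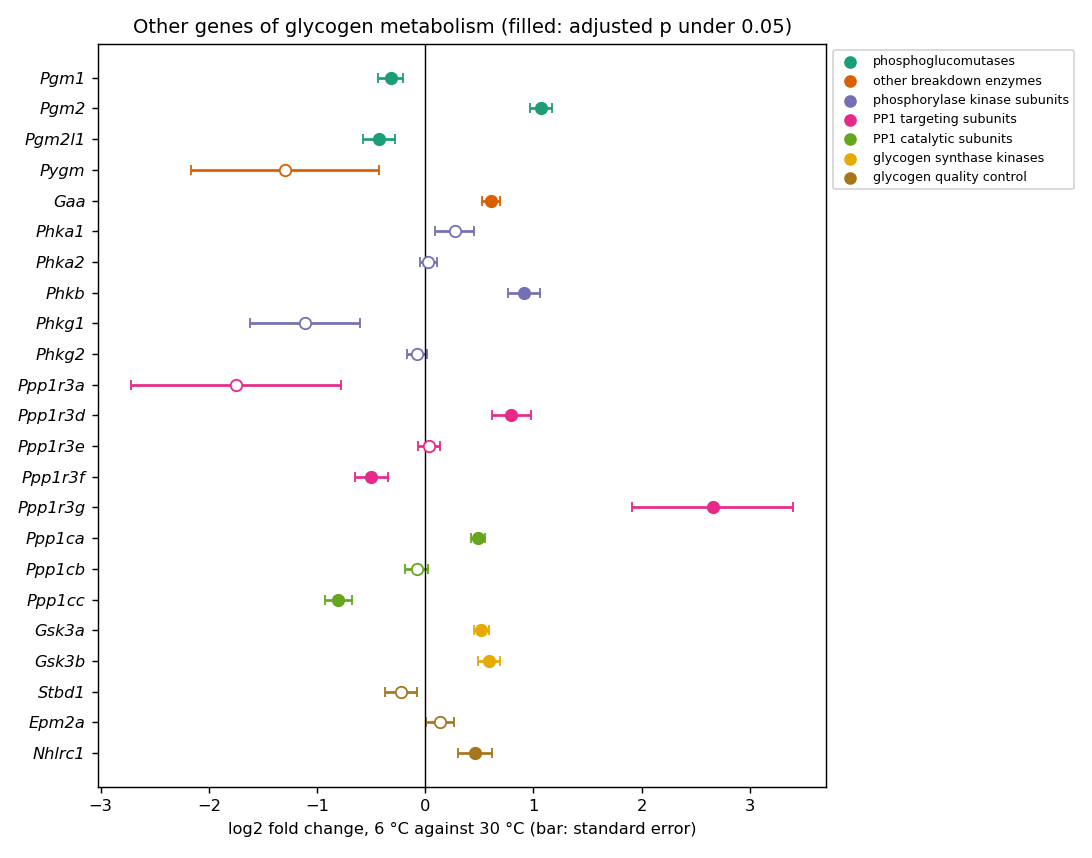
Log2 fold change at 6 °C against 30 °C of other genes of glycogen metabolism, coloured by role, with the standard error as a bar and filled symbols for an adjusted p under 0.05. The scarce Ppp1r3g (2.66) lies farthest right, followed by the phosphoglucomutase listed as Pgm2 (1.07) and Phkb (0.92), and the muscle-linked genes Pygm and Ppp1r3a have the widest bars.

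Skeletal muscle, which borders the depot and stores glycogen, was followed through its own markers. The summed level of its 16 markers was 5472, 1044, 1134 and 1684 CPM at 30 °C, 1041, 1136, 1218 and 3989.5 at 22 °C and 2063, 476, 102 and 1508 at 6 °C, and none of the 16 was at 0 in any library or passed the test between 30 and 6 °C. Pygm stood at 216, 46.5, 49.1 and 73.4 CPM at 30 °C, at 47.9, 47.0, 53.7 and 166 at 22 °C and at 77.6, 18.2, 4.03 and 57.3 at 6 °C. It was highest in the libraries with the most muscle RNA (30 °C mouse 1 and 22 °C mouse 4) and lowest in 6 °C mouse 3, which had the least. The scaffold of muscle, Ppp1r3a, went from 19.8 CPM in 30 °C mouse 1 to 0.0354 in 6 °C mouse 3 (1 count), and did not pass between 30 and 6 °C (log2 change -1.75, SE 0.97, adjusted p = 0.148). In that same 6 °C mouse 3, Gys1 stood at 356, Gys2 at 175 and Pygl at 1519 CPM, each the highest of its gene over the 12 libraries. Within the 30 °C group, mouse 1, with the most muscle RNA, was the highest for the same genes, at 206, 50.5 and 665 CPM. In a single mouse, temperature and muscle RNA cannot be told apart, and the part of muscle in these levels was not tested.

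**Figure D5:**
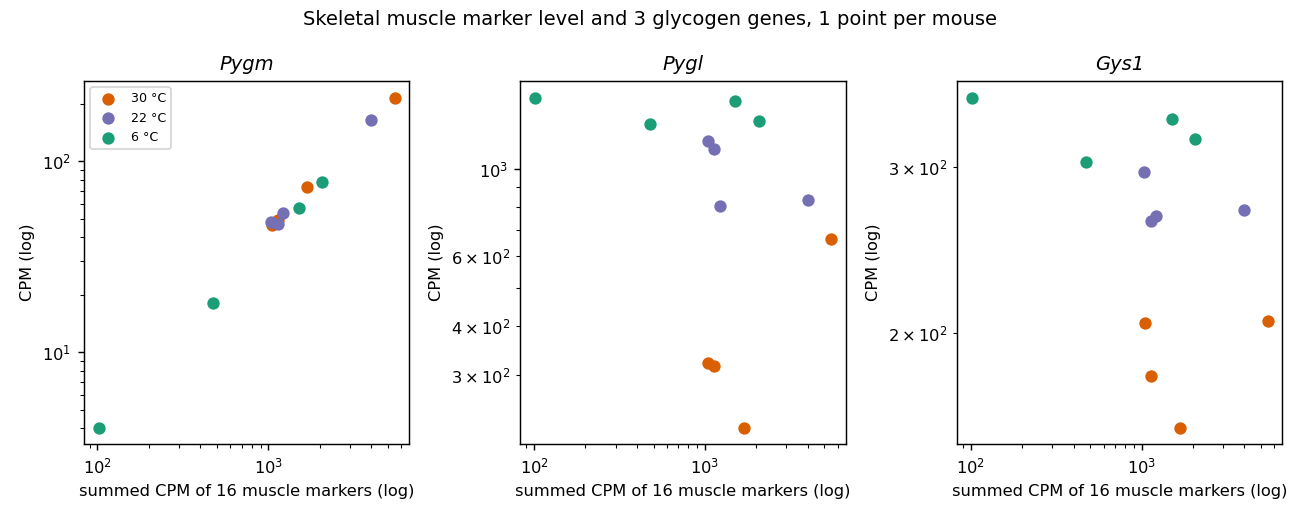
Level of Pygm, Pygl and Gys1 (CPM, log axis) against the summed level of 16 skeletal muscle markers (CPM, log axis), 1 point per mouse, coloured by temperature. Pygm lines up with the muscle markers across temperatures, and Pygl and Gys1 are highest in the mouse with the least muscle RNA, at 102 CPM.

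Since Gys2 and Pygl bear the name of liver, hepatocyte and neutrophil markers were read as well. Albumin (Alb) lay at 0.0804 to 0.271 CPM at 30 °C, 0 to 0.165 at 22 °C and 0.162 to 2.94 at 6 °C. Apoa2 lay at 0.599 to 0.724, 1.04 to 1.13 and 1.14 to 1.52 CPM. Over the 12 libraries Ttr lay between 0 and 0.318 CPM and Serpina1a between 0 and 0.201. Cyp2e1, the other marker of the list, stood at 173 to 333 CPM at 30 °C, at 99.5 to 910 at 22 °C and at 62.6 to 127 at 6 °C. The 6 neutrophil markers summed to at most 3.01 CPM in a library, with Ly6g at 0 in all 12. Of the 2 hepatocyte markers that passed the filter, 1 was higher and 0 lower at 6 °C than at 30 °C. Among the 3 neutrophil markers that passed it, 2 were higher and 1 lower. The part of such cells in the levels of Gys2 and Pygl was not tested.

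The genes whose profiles over the 12 libraries were most like each member's are given with Pearson's r of log2 CPM, among 9722 genes whose mean reached 5 CPM, as a description without a test, since the 3 temperatures set the groups apart. For the synthases they were Nudt12 (0.994), Pdha1 (0.993) and Insr (0.991) for Gys1, and Hsdl2 (0.986), Pkm (0.983) and Gpam (0.982) for Gys2. Pdha1 encodes a subunit of pyruvate dehydrogenase, Insr the insulin receptor, Pkm pyruvate kinase and Gpam an enzyme of triglyceride synthesis. Ugp2 was most like Deptor (0.990), Gpi1 (0.986) and Ryk (0.985), where Gpi1 encodes the glycolytic isomerase of glucose 6-phosphate. Gyg was most like Acad11 (0.986), Btbd1 (0.980) and Hsd17b4 (0.979), and Gbe1 most like Gpd2 (0.995), Grsf1 (0.994) and Gfm1 (0.993), of which Gpd2 is the mitochondrial glycerol phosphate dehydrogenase. For Pygl the genes were Tkt (0.993), Acly (0.984) and Pdhb (0.984), with transketolase and ATP citrate lyase ahead. For Pygb they were Spon1 (0.976), Podn (0.975) and Glb1l2 (0.975), and Spon1 and Podn encode matrix proteins. For Ppp1r3b they were Polr3g (0.986), Kbtbd11 (0.980) and Dusp19 (0.975), and for Ppp1r3c Dnaja4 (0.957), Anp32e (0.941) and P4ha1 (0.938), the weakest likeness of the 9.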

How the data were processed

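RNA was sequenced from the interscapular brown fat of 12 mice, 4 at each temperature. The authors deposited raw read counts per Ensembl gene, 1 column per mouse. Per the labels' protocols, tissue was lysed in Qiazol, total RNA was purified on RNeasy columns and freed of DNA, and libraries followed Illumina's usual procedure. Per the submitters' processing notes, the tools included FastQC 0.10.1, STAR 2.4.2a and edgeR 3.14.0, with the genome given as GRCm38 and as mm10. Counter, annotation release, read length and strandedness were not stated in the sources at hand, so overlapping genes of opposite strands cannot be told apart.

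Counts were filtered with filterByExpr (14870 of 38924 genes left), scaled by TMM (factors 0.87 to 1.227) and fitted with edgeR 4.0.16 in R 4.3.3 (glmQLFit with robust estimation, 1 factor of 3 temperatures, all 12 libraries, glmQLFTest two-sided). Benjamini-Hochberg adjustment covered every tested gene. Each standard error is the size of the log2 change over the root of its F statistic. RPKM is TMM-scaled CPM per kilobase of merged GENCODE M21 exons. Libraries of 1 temperature differed beyond sampling (chi-square over its degrees of freedom no lower than 22.8 in 18 pairs), so none was treated as a copy. Nothing in the labels pairs mice across temperatures. Settings changed 1 at a time were the scaling (RLE, upper quartile, total counts, TMM leaving out Ucp1 and the mitochondrial genome), the filter (none, or 1 CPM in 4 libraries), DESeq2 1.42.0, limma voom 3.58.1, non-robust dispersion, a block for the mouse number, the 8 compared libraries alone, the muscle marker level as a covariate, leaving out libraries and an adjusted p under 0.01. The text names all members, pathway genes that passed at 6 °C against 30 °C (with Pygm) and the 3 genes most like each member, and 1 pathway gene that is counted is not reported here by itself. Of the pathway genes that did not pass, Phka1, Phka2, Phkg1, Ppp1cb, Ppp1r3a and Epm2a, and of the markers those read beside Gys2 and Pygl, were named after their values were seen. Members and lists were chosen with earlier results of these data known. The fitting script was tested on simulated counts. P-values speak for the spread between these mice.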

Additional observations from a re-analysis of the deposited data

Results flagged for a closer look

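In groups of 4 mice, a value was singled out when its gap to the nearest other mouse took up more of the group's range than Dixon's critical value allows, which chance alone does in about 1 of 20 groups, and 36 groups were looked at. Ppp1r3b at 22 °C stood at 743 CPM in mouse 1 and at 313 to 385 CPM in the other mice. Gys2 at 22 °C stood at 53.7 CPM in mouse 4, against 67.2 to 68.7 CPM in the others. The share of Gys2 among synthase transcripts at 30 °C was 21.5% in mouse B, against 29.5 to 30.7%. The share of Ppp1r3b among the 2 scaffolds at 6 °C was 53.1% in mouse 4, against 57.8 to 58.7%. Pygb at 6 °C stood at 76.2 CPM in mouse 4, against 77.9 to 78.3 CPM, so the gap there was small in itself.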

How the results depend on the processing

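No member change that passed the test changed sign under an alternative. Among those that did not pass, Pygb and Ppp1r3c at 22 °C against 30 °C (Ppp1r3c from 0.22 to -0.03 with total counts) and the differences of steps of Gyg (from -0.09 to 0.11) and Gbe1 (from -0.11 to 0.09, both with total counts) did. Of the 963 member log2 changes read under the alternatives, 46 changed their side of the threshold, and the report gives those for single mice. Both numbers include the setting of an adjusted p under 0.01, where the fit stayed the same and the threshold moved. From 22 to 6 °C, Gys1 was also lost without a filter on low counts (adjusted p = 0.0506) and with the muscle covariate (0.0951), and Ppp1r3c without a filter (0.0975), with the 8 compared libraries alone (0.0738) and without mice A and B (0.0549). Pygl was gained in that step with the 8 compared libraries alone (0.012). At 6 °C against 30 °C, 8 members rose and 1 fell under each alternative, except that 7 rose without mice A and B and with the mouse number as a block. At 22 °C against 30 °C between 5 and 7 members rose, and from 22 to 6 °C between 4 and 7. In the difference of steps, 2 members were called higher with total counts and 2 without mice A and B, and 0 to 1 with single mice left out. There 1 to 2 were called lower with single mice left out, and 2 without the pair of libraries richest in muscle RNA, a setting chosen after the data were seen.

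The other pathway genes called lower at 6 °C against 30 °C numbered 10 with total counts, 1 with the muscle marker level as a covariate, 1 at an adjusted p under 0.01, 2 without the pair of muscle-rich libraries and 2 to 5 with single mice left out. At 22 °C against 30 °C, 6 were higher and 7 lower with total counts, and 5 were lower with upper-quartile scaling and 5 with limma voom. From 22 to 6 °C those called higher numbered 1 with total counts, 2 without a filter on low counts, 2 with the muscle covariate, 0 at an adjusted p under 0.01 and 1 to 4 with single mice left out. Total counts also moved the split of all genes: at 6 °C against 30 °C 1939 were called higher and 7888 lower (3767 and 4677 with TMM), at 22 °C against 30 °C 1419 and 6224 (3248 and 3386), from 22 to 6 °C 1996 and 3088 (2511 and 2580), and in the difference of steps 3007 and 1275 (2126 and 2227). Total counts leave out TMM factors of 1.105 to 1.227 at 30 °C, 0.917 to 0.982 at 22 °C and 0.87 to 0.949 at 6 °C. Why these factors differed by temperature was not tested.

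Shares of raw counts, not divided by exon length, were 17.7%, 19.0% and 32.8% for Gys2 at 30, 22 and 6 °C, 59.8% and 92.3% for Pygl at 30 and 6 °C, and 59.3%, 76.7% and 75.1% for Ppp1r3b. Without Pygm, an alternative chosen after the data were seen, the Pygl shares were 61.9%, 82.1% and 92.7%. These differences follow from how the shares are built.

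Nothing in the labels pairs mice of the same number across temperatures. The correlations of same-numbered mice ran from -0.152 to 0.23 over 8 pairs. Mice of different numbers were not set beside them, so these correlations do not decide on pairing. With the number as a block, in the 10 libraries that carry one, 1 pathway gene was lower at 6 °C against 30 °C and 4 were higher at 22 °C against 30 °C. In the difference of steps 1 member (Gys2) was then higher and 0 lower. The fit with the block also leaves out mice A and B, so the pairing and the number of libraries change together. With 4 mice per group, small changes may go undetected at this depth.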
